A study of Mus musculus with 27 samples.

Results

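Mouse thyroid gland organoids that had received 2 Gy of photon radiation were compared with organoids of the same cultures that had received 0 Gy, both collected at day 11 of culture, to describe what was measurable of the low-dose response late in culture. The libraries were chosen by the day and the dose in the column names, which gave 3 libraries at 2 Gy and 3 at 0 Gy, 6 of the 27 libraries of the series. The organoids were grown in Matrigel from thyroid glands of female C57BL/6 mice aged 8 to 12 weeks, and irradiation was given at day 5. Both groups shared the strain, the tissue and the medium, and the 0 Gy group was not irradiated. Further groups used here were 0 and 2 Gy at day 7, and 4 and 7 Gy at day 11, with 3 libraries each. The libraries of 4 and 7 Gy at day 7 entered the fits of that day and of both days and were not compared. The cultures were named mTG11, mTG12 and mTG14 in the columns, and each occurred once in every group. The labels number the mice 1 to 3 and the design text speaks of 4 mice, so the cultures could not be tied to numbered mice. The fits set aside differences in level between cultures. p-values therefore measured how far the effects of dose varied across these cultures, with the spread estimated over all libraries of a fit.

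RNA was measured with Smart3SEQ, which counts the 3′ ends of polyadenylated transcripts, and the deposited values were estimated counts per gene symbol. At day 11 the totals in cultures mTG11, mTG12 and mTG14 were 4200268, 3729869 and 3636887 counts at 0 Gy, and 4469099, 3589753 and 3755138 counts at 2 Gy. A level of 3 counts, taken as the smallest detectable amount, corresponded to between 0.671 and 0.836 CPM (counts scaled to a library total of 1e6) in these libraries, a limit that covers counting error only. Ionising radiation breaks DNA and activates the transcription factor p53, which induces genes of cell cycle arrest and repair. In many cell types it is also followed by interferon signalling, in which type I or III interferons act through their receptors on genes with an interferon-stimulated response element, among them antiviral genes and genes of antigen presentation by major histocompatibility complex (MHC) class I. Surviving cells can release matrix-degrading proteases and cytokines, and fibroblasts respond to injury by depositing collagen.

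The labelled tissue was checked against its markers. Of 10 thyroid follicular cell markers, 6 had enough counts to be tested, and their summed level was 52.6, 54.2 and 61.6 CPM at 0 Gy and 56.2, 49.0 and 54.5 CPM at 2 Gy in cultures mTG11, mTG12 and mTG14. The most abundant of them was the transcription factor gene Foxe1, with a mean of 31.5 CPM over the 6 libraries. The genes for the iodide symporter (Slc5a5) and the thyrotropin receptor (Tshr) were at 0 in all 6 libraries, and thyroglobulin (Tg) was at 0.238, 6.17 and 0.55 CPM at 0 Gy and 0.224, 3.9 and 1.07 CPM at 2 Gy. Tg was thus close to or below the level of 3 counts in mTG11 and mTG14 and above it in mTG12. Markers of basal squamous epithelium, led by the keratin gene Krt5, summed to 4233, 6189 and 4684 CPM at 0 Gy and 4145, 5484 and 4427 CPM at 2 Gy. In these bulk libraries, fewer cells of a type and less RNA per cell cannot be told apart.

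At day 11, genes of the interferon response and of MHC class I, 5 matrix metalloproteinase genes and both type I collagen genes rose after 2 Gy, and genes of multiciliated cells and Fos fell. With the culture as a replicate block, edgeR's quasi-likelihood test called 72 of 19901 genes, 0.362% of those tested, at a Benjamini-Hochberg adjusted p-value under 0.05. Of these, 56 rose (0.281%) and 16 fell (0.0804%), with a median log2 fold change of 1.26 among the genes that rose and -1.40 among those that fell. All 72 changed in the same direction in each of the 3 cultures. The test that called them was paired by these cultures and favours such genes, so this count is not separate support. The share of all tested genes that did so is not given here. The 0 and 2 Gy values did not overlap across cultures for 15 of the genes that rose and 8 of those that fell, and for 2075 of all 19901 genes tested (10.4%). Among the 72 genes, 39 belonged to a gene list used here. The lists were chosen with earlier results of these data known. The share of all tested genes that belong to a list is not given here, so this count lacks a background. At an unadjusted p under 0.05 there were 934 higher and 816 lower genes. Over all genes tested the median log2 fold change was -0.01.

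The number of calls depended on the pairing of the cultures. Without the replicate block edgeR called 0 genes, with 1159 at an unadjusted p under 0.05 and a smallest adjusted p of 0.6263, whereas DESeq2 with the block called 96 genes. With no filter beyond 1 count edgeR with the block called 455 genes, 245 higher and 210 lower. Without culture mTG11, mTG12 or mTG14 edgeR called 33, 85 and 9 genes. When a single library was left out, the count was 23 without 2 Gy mTG11, 76 without 2 Gy mTG12, 23 without 2 Gy mTG14, 38 without 0 Gy mTG11, 29 without 0 Gy mTG12 and 38 without 0 Gy mTG14.

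The interferon-stimulated genes made up the largest group. Of 36 such genes, all of which were tested, 19 rose and 0 fell in edgeR, with 34 higher and 0 lower at an unadjusted p under 0.05 and 21 that rose with DESeq2. The median log2 fold change of the list was 0.99. The summed level of the list in cultures mTG11, mTG12 and mTG14 was 1159, 391 and 767 CPM at 0 Gy and 2460, 772 and 1729 CPM at 2 Gy. The cultures thus differed in their starting level, with mTG12 lowest and mTG11 highest at both doses, while the ratio of 2 Gy to 0 Gy was 2.12, 1.97 and 2.25. These sums overlapped between the doses across cultures, while each culture was higher at 2 Gy. The number of the 36 genes that passed was 8 without culture mTG11 and 5 without culture mTG14. It was 7 without the 2 Gy library of mTG11, 9 without that of mTG14, and 12, 11 and 12 without the 0 Gy library of mTG11, mTG12 and mTG14. The median log2 fold change of the list lay between 0.91 and 1.10 in these fits.

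Signalling and transcription factor genes of the list were among those that rose. Irf7, the interferon regulatory factor that amplifies the response, was at 94.3, 31.1 and 76.7 CPM at 0 Gy and at 173, 79.1 and 138 CPM at 2 Gy. Each culture was higher at 2 Gy, although mTG12 at 2 Gy was below mTG11 at 0 Gy. Its log2 fold change was 0.93 ± 0.13, with an edgeR adjusted p of 0.003731. Here and below, ± on a log2 fold change or a difference of them is a standard error derived from the edgeR test. It rests on all libraries of the fit, 12 at day 11, with 3 cultures per dose. Irf9, which encodes a DNA-binding factor of the interferon response, rose by 0.84 ± 0.16 (edgeR adjusted p = 0.03665). Stat2 had a log2 fold change of 0.94 and did not pass (edgeR adjusted p = 0.05346). Usp18, whose product removes ISG15 from proteins and dampens receptor signalling, rose by 1.10 (edgeR adjusted p = 0.0052). In edgeR fits that left out a culture or a library, Irf7 lost its call without culture mTG11 (adjusted p = 0.05568) or mTG14 (0.06363). Irf9 passed only without culture mTG12 or its 2 Gy library, with adjusted p between 0.05153 and 0.3319 in the other such fits. Usp18 lost its call without culture mTG14 (0.198), 2 Gy mTG11 (0.0589) or 2 Gy mTG14 (0.05457).

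Antiviral effector genes rose as well. Ifit3, a member of a family that binds foreign RNA, lies on GRCm39 at chr19:34560899-34566443 on the plus strand and was at 29.4, 10.2 and 14.2 CPM at 0 Gy and 96.6, 21.9 and 68.6 CPM at 2 Gy. Its log2 fold change was 1.71 ± 0.16 (edgeR adjusted p = 0.0001519). The neighbouring Ifit3b (chr19:34585328-34590801) rose by 1.52 ± 0.14, and Ifit1 (chr19:34618271-34632174) rose by 1.10 ± 0.18. These genes form a cluster of related sequences, and Ifit3 and Ifit3b could have shared reads, so the split of counts between them is uncertain. Isg15, a ubiquitin-like modifier at chr4:156283883-156285303 on the minus strand, was at 83.0, 17.3 and 47.3 CPM at 0 Gy and 242, 46.9 and 145 CPM at 2 Gy (log2 fold change 1.47 ± 0.20, edgeR adjusted p = 0.003001). The values of both genes overlapped between doses across cultures, and each culture was higher at 2 Gy. Ifi44 rose from 81.2, 24.7 and 48.7 CPM to 166, 60.2 and 133 CPM (1.19 ± 0.12, edgeR adjusted p = 0.0002681). Ifi27l2a, an interferon-inducible gene, had 59.3, 6.43 and 28.9 CPM at 0 Gy and 198, 40.4 and 90.3 CPM at 2 Gy, and rose by 1.77 ± 0.31 (edgeR adjusted p = 0.02209). Ifit3, Ifit3b and Ifi44 passed in every edgeR fit that left out a culture or a library, and Isg15 lost its call without culture mTG14 (adjusted p = 0.1262) or 2 Gy mTG11 (0.05351). Ifi27l2a passed only without culture mTG12 or its 2 Gy library, with adjusted p between 0.06488 and 0.2324 in the other such fits. Ifit1 lost its call without culture mTG11 (0.0794), culture mTG14 (0.254), 2 Gy mTG11 (0.1409), 2 Gy mTG14 (0.1197), 0 Gy mTG12 (0.06366) or 0 Gy mTG14 (0.07076).

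Apol9a, Apol9b, Trim30a, Rsad2, Herc6 and Gbp3, all at low levels, rose by log2 fold changes of 2.05, 2.04, 1.84, 1.77, 1.77 and 1.54. The means of these genes at 0 Gy lay between 1.77 CPM for Herc6 and 4.48 CPM for Apol9b, and Apol9a and Apol9b are near-identical copies whose counts cannot be separated with certainty. Oasl2, Rtp4 and the tetherin gene Bst2 rose by 1.18, 1.17 and 0.90. The viral RNA sensor gene Ifih1 had a log2 fold change of 0.41 and did not pass (edgeR adjusted p = 0.3241). Mx1 and Mx2, at log2 fold changes of -0.07 each, were the members of the list below 0. Outside the list, Ifit1bl1, Ddx60, Ifi207, Trim30d and Phf11d also rose, by 0.95, 1.35, 1.28, 2.28 and 0.74. Of these, Ifit1bl1 was named by the rule for genes called at both days, and the others were chosen after their values were seen. Of the genes of this paragraph that rose, each was called in between 11 (Herc6, Phf11d) and 18 (Apol9b, Trim30a, Ifit1bl1, Ddx60) of 20 alternatives of the processing and the libraries, 1 of them chosen after seeing the data.

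**Figure D1:**
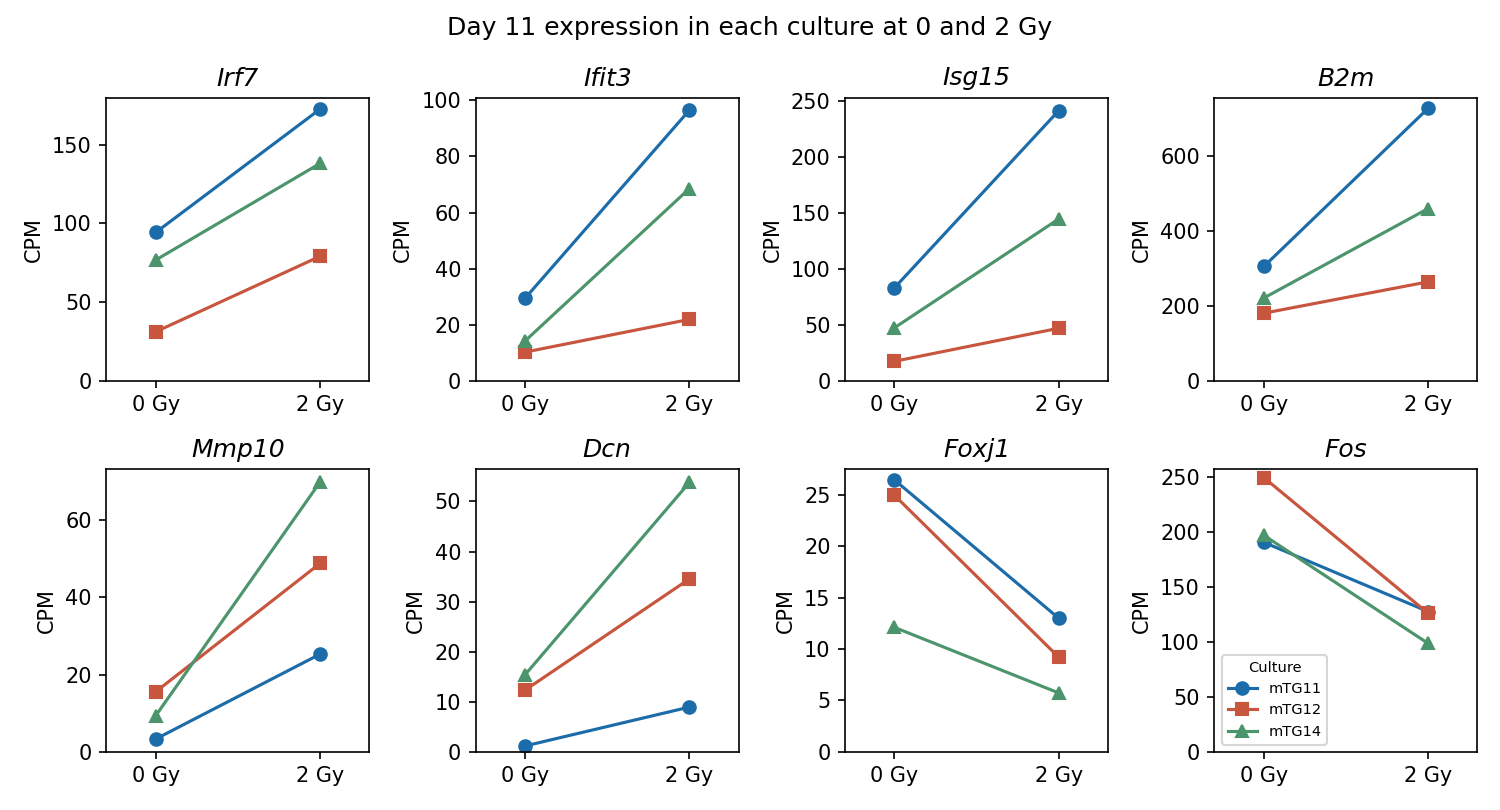
Levels in CPM of 8 genes at 0 and 2 Gy at day 11, with a line joining the libraries of each culture (mTG11, mTG12, mTG14). Irf7, Ifit3, Isg15, B2m, Mmp10 and Dcn are higher at 2 Gy in each of the 3 cultures, and Foxj1 and Fos are lower in each.

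Genes of MHC class I antigen presentation, which load peptides onto class I molecules and carry them to the cell surface, also rose. Of 17 genes, 6 rose and 0 fell in edgeR (12 higher and 0 lower at an unadjusted p under 0.05, and 6 that rose with DESeq2), with a median log2 fold change of 0.57. B2m, the light chain shared by all class I molecules, lies at chr2:121977957-121983594 and was at 304, 180 and 220 CPM at 0 Gy and 726, 264 and 459 CPM at 2 Gy. Its log2 fold change was 0.93 ± 0.12 (edgeR adjusted p = 0.002646). The heavy chain gene H2-K1 was at 358, 196 and 262 CPM and at 699, 241 and 462 CPM (0.67 ± 0.10, edgeR adjusted p = 0.009672). The increase was smallest in mTG12 for both genes, and its 2 Gy level lay within the range of the 0 Gy libraries. H2-D1 rose by 0.53, and the peptide transporter gene Tap1 rose from 38.1, 29.0 and 29.4 CPM to 62.4, 40.1 and 51.4 CPM with no overlap (0.63 ± 0.10, edgeR adjusted p = 0.007995). H2-Q7 and H2-Q9 rose by 1.34 and 1.35 with nearly equal values, and reads could not be assigned between them with certainty. The immunoproteasome gene Psmb8 and the class I transactivator gene Nlrc5 had log2 fold changes of 0.38 and -0.12 and did not pass.

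The summed level of the class I list was 1381, 890 and 1101 CPM at 0 Gy and 2571, 1084 and 1768 CPM at 2 Gy, a ratio of 1.86, 1.22 and 1.61 in cultures mTG11, mTG12 and mTG14. In edgeR fits that left out libraries, 1 class I gene passed without culture mTG11, and 0 passed without culture mTG14, where 11 were higher at an unadjusted p under 0.05. Without the 2 Gy library of mTG11 or of mTG14, or the 0 Gy library of mTG11, 1 gene passed in each fit, and 4 and 2 passed without the 0 Gy library of mTG12 and of mTG14. B2m lost its call without culture mTG14 (edgeR adjusted p = 0.1082) and in no other of these fits. H2-K1, H2-D1, Tap1, H2-Q7 and H2-Q9 were called in 12, 13, 14, 10 and 9 of the 20 alternatives. In those with the replicate block their adjusted p was up to 0.2393, 0.2324, 0.2087, 0.5662 and 0.5563.

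A count of response elements in promoters had been planned as a description. The list holds known interferon-stimulated genes, so a high share with the element was likely whatever these data showed. RefSeq promoter sequences, from 250 bases before to 50 bases after the gene start in a table of build GRCm38.p6, were available for 26 of the 36 genes. The core of the interferon-stimulated response element, GAAANNGAA on either strand, was present in a promoter of 18 of these 26 genes (69.2%) and of 11 of the 15 matched genes among those that rose (73.3%). It was present in 2812 of all 32851 promoters in the table (8.56%), and 9.76% of all genes in it had such a promoter. Of 43 matched genes among the 56 that rose, 19 (44.2%) held it, and of 12 matched genes among the 16 that fell, 1 (8.33%) did. In the class I list 4 of 14 matched genes held it, and of the 5 matched class I genes that rose, 1 (20%), B2m. The CCAAT box, CCAAT on either strand, was present in a promoter of 5 of the 5 matched class I genes that rose, and of 41.1% of all genes. A match describes letters in the window and is not a measured binding site.

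The promoters of 4 genes that rose are printed to show how the element is placed. They were located by exact match on GRCm39, at chr4:156285226-156285525 on the minus strand for Isg15, chr19:34560679-34560978 on the plus strand for Ifit3, chr19:34618039-34618338 on the plus strand for Ifit1 and chr2:121977918-121978217 on the plus strand for B2m. Sequences run 5′ to 3′ in the direction of the gene, and capitals mark GAAANNGAA or its reverse complement TTCNNTTTC, which overlap with each other in Isg15 and Ifit1. Isg15, Ifit3 and Ifit1 had 3 matches each and B2m had 1.
Isg15: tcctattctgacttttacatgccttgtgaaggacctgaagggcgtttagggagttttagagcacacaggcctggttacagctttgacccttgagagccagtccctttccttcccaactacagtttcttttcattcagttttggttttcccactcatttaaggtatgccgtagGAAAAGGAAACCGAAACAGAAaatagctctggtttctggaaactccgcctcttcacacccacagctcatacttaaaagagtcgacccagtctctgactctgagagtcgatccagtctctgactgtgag
Ifit3: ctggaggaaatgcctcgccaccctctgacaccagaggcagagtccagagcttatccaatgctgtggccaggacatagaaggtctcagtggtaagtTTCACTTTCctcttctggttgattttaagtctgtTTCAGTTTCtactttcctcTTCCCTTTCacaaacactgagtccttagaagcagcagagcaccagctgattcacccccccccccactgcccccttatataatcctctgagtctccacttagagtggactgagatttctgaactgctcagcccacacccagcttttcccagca
Ifit1: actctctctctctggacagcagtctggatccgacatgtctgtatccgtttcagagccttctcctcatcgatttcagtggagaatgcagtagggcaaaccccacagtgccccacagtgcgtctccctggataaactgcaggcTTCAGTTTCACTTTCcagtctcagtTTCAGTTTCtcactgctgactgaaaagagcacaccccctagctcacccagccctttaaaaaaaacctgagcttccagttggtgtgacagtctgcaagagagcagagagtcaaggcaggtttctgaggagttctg
B2m: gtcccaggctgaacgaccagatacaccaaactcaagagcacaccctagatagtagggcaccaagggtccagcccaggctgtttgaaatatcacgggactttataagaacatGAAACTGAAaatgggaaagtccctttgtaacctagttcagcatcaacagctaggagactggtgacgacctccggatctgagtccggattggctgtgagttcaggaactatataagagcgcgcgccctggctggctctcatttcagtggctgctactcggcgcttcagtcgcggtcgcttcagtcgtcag

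Of 14 tested genes with an Mmp symbol, a set counted after the values were seen, 5 rose and 0 fell in edgeR. They had the 3 largest log2 fold changes among the genes that rose, those of Mmp12 (3.03), Mmp9 and Mmp10. Mmp10, which encodes stromelysin 2, a protease that cleaves matrix proteins and activates other metalloproteinases, lies at chr9:7502353-7510241. Its level was 3.33, 15.6 and 9.35 CPM at 0 Gy and 25.3, 48.7 and 69.8 CPM at 2 Gy in cultures mTG11, mTG12 and mTG14. The groups did not overlap, and the log2 fold change was 2.40 ± 0.31 (edgeR adjusted p = 0.002646). Mmp3, or stromelysin 1, at chr9:7445822-7455975, was at 8.81, 59.8 and 66.5 CPM and at 55.0, 132 and 257 CPM (1.74 ± 0.23, edgeR adjusted p = 0.002646). Here the groups overlapped, because mTG11 at 2 Gy was below mTG12 and mTG14 at 0 Gy. The collagenase gene Mmp13, at chr9:7272514-7283331, was at 4.05, 8.31 and 17.6 CPM and at 13.3, 13.9 and 52.2 CPM (1.32, edgeR adjusted p = 0.04739). The gelatinase gene Mmp9, at chr2:164780439-164797771, was at 0.476, 1.07 and 1.37 CPM and at 1.57, 8.36 and 7.19 CPM (2.48 ± 0.45, edgeR adjusted p = 0.02441), close to the limit of detection at 0 Gy. Mmp12, chosen after its values were seen, lies in the same chromosome 9 cluster at chr9:7344381-7369499 and was at 0, 0.536 and 1.10 CPM and at 1.12, 3.34 and 9.85 CPM (edgeR adjusted p = 0.0198, called in 13 of the 20 alternatives). Mmp3, Mmp9 and Mmp13 were the 3 genes that passed of the 24 tested senescence and secretory phenotype genes (median log2 fold change 0.18), and without culture mTG14 0 of the 24 passed in edgeR, with 6 higher and 1 lower at an unadjusted p under 0.05. In that list 1 gene passed without 2 Gy mTG11, 2 Gy mTG14, 0 Gy mTG12 or 0 Gy mTG14. With no filter beyond 1 count 7 of 26 tested genes of the list rose and 1 fell. With only the 6 compared libraries or with all 24, 4 rose. Mmp10 and Mmp3 lost their calls without culture mTG14 (edgeR adjusted p = 0.09283 and 0.1112). Without a culture or library, Mmp9 passed only without 0 Gy mTG11, with adjusted p up to 0.2965, and Mmp13 only without 2 Gy mTG12, with adjusted p up to 0.4631. The call of Mmp13 was also lost with unrounded counts, an alternative chosen after seeing the data (0.05566).

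The AP-1 site TGANTCA, on either strand, was searched in the RefSeq promoters of the 5 metalloproteinase genes that rose, a set chosen after the values were seen. Of 4 matched genes, 4 had it in a promoter, against 8.97% of all genes in the table, and 4 of their 5 promoters held it, against 7.81% of all promoters. The site was also present in 13 of the 43 matched genes among all that rose (30.2%), and in 10 of the 26 matched interferon-stimulated genes (38.5%). The Mmp10 promoter, at chr9:7502093-7502392 of GRCm39 on the plus strand, is printed 5′ to 3′ with this site in capitals.
Mmp10: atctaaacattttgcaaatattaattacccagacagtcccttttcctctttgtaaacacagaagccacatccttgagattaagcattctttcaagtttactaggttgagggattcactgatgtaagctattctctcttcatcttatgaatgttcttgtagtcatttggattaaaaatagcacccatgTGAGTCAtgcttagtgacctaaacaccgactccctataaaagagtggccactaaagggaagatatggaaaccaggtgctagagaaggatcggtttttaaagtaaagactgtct

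Genes of fibroblasts and stromal matrix were the next group that rose. Of 18 genes, 3 rose and 0 fell in edgeR (8 higher and 0 lower at an unadjusted p under 0.05, and 3 that rose with DESeq2), with a median log2 fold change of 1.52. With no filter beyond 1 count 6 of the 18 rose in edgeR, and 1 rose in a fit over all 24 libraries of both days. The summed level of the list, led by Sparc, was 154, 236 and 318 CPM at 0 Gy and 180, 286 and 417 CPM at 2 Gy, a ratio of 1.17, 1.21 and 1.31 in cultures mTG11, mTG12 and mTG14. Col1a1, a chain of type I collagen, was at 1.67, 10.7 and 4.40 CPM at 0 Gy and 5.82, 33.4 and 14.6 CPM at 2 Gy. It rose by 1.70 ± 0.19 (edgeR adjusted p = 0.0008263), and the other chain gene of type I collagen, Col1a2, rose by 1.64 (edgeR adjusted p = 0.02832, called in 11 of the 20 alternatives). Dcn, which encodes the collagen-binding proteoglycan decorin, was at 1.19, 12.3 and 15.4 CPM and at 8.95, 34.5 and 53.8 CPM (1.75 ± 0.23, edgeR adjusted p = 0.002646). Culture mTG11 was lowest for Col1a1 and Dcn at both doses, and the groups overlapped because of it. Vim, the intermediate filament gene of mesenchymal cells, rose by 1.69 (edgeR adjusted p = 0.02287) and was the 1 gene that passed of 25 genes of TGF-beta and epithelial-mesenchymal transition, whose median was 0.13. Spp1, which encodes the matrix and cytokine protein osteopontin, was at 10.0, 62.7 and 47.3 CPM and at 49.9, 150 and 156 CPM and rose by 1.63 ± 0.18 (edgeR adjusted p = 0.0006828). Col1a1 and Spp1 passed in every edgeR fit that left out a culture or a library, but Col1a1 did not in a fit over all 24 libraries of both days (adjusted p = 0.06313), and Dcn lost its call without culture mTG14 (adjusted p = 0.1082). Vim passed only without culture mTG12, with adjusted p between 0.06366 and 0.3668 in the other such fits. Its call was also lost in the fit over all 24 libraries, and it was called in 10 of the 20 alternatives.

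Cell type markers were summed beside these genes. The 9 fibroblast markers are all members of the stromal list and restate part of it. All were tested, the 3 that rose are Col1a1, Col1a2 and Dcn, none was at 0, and the most abundant was Dcn with a mean of 21.0 CPM. Their summed level was 10.0, 40.8 and 79.5 CPM at 0 Gy and 28.0, 112 and 142 CPM at 2 Gy, a ratio of 2.80, 2.76 and 1.79 in cultures mTG11, mTG12 and mTG14. Of 6 skeletal muscle markers, 5 were tested and 1, Acta1, rose (log2 fold change 1.17, edgeR adjusted p = 0.01246, called in 14 of the 20 alternatives). The summed level of these markers was 9.76, 19.4 and 19.8 CPM at 0 Gy and 15.6, 41.3 and 33.1 CPM at 2 Gy, Acta1 was the most abundant, and Ckm was at 0 in all 6 libraries. The summed level of 6 smooth muscle or pericyte markers, led by Notch3, was 44.9, 49.9 and 58.1 CPM and 48.2, 47.9 and 57.6 CPM, of which Notch3 made up 39.7 CPM on average over the 6 libraries. The median log2 fold change of these 6 markers was 1.28, 4 were positive, and 0 passed in edgeR, with 2 higher and 0 lower at an unadjusted p under 0.05. Of 7 macrophage markers, 3 were tested and led by Cd68, with sums of 65.5, 38.1 and 42.2 CPM and of 59.5, 40.0 and 44.0 CPM, and Adgre1, C1qa and C1qb were at 0. Endothelial markers summed to at most 1.95 CPM and lymphocyte markers to at most 1.07 CPM in any of these libraries, and erythroid markers were at 0. Adipocyte markers summed to 0, 0 and 0.275 CPM at 0 Gy and 1.34, 0.279 and 3.2 CPM at 2 Gy. The 1 of these 6 that was tested, Fabp4, was chosen after its values were seen and did not pass (log2 fold change 5.66, edgeR adjusted p = 0.1595), with 0 counts in every 0 Gy library. Of 3 tested chondrocyte markers, 1 was higher and 0 lower at an unadjusted p under 0.05. The part of the fibroblast and muscle markers in the rise of the collagen and metalloproteinase genes was not tested. Without culture mTG14, 1 of the 18 stromal genes passed, and 2 passed without mTG12, without 2 Gy mTG14, or without any 1 of the 0 Gy libraries.

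Multiciliated cell genes formed the main group that fell. These genes encode the regulators and structural parts of motile cilia, which occur on airway and other ciliated epithelia. Of 25 genes, 0 rose and 4 fell in edgeR, with 19 lower at an unadjusted p under 0.05 and 2 that fell with DESeq2. All 25 had negative log2 fold changes, and their median was -1.50. Foxj1, the transcription factor gene that drives motile cilia formation, lies at chr11:116221530-116226225 on the minus strand. It was at 26.4, 24.9 and 12.1 CPM at 0 Gy and 13.0, 9.19 and 5.73 CPM at 2 Gy, and changed by -1.18 ± 0.23 (edgeR adjusted p = 0.04065). Culture mTG14 was the lowest at both doses, and its 0 Gy level was below that of mTG11 at 2 Gy. Tppp3, a tubulin-binding protein gene, was at 18.3, 20.1 and 9.35 CPM and at 5.37, 7.52 and 2.93 CPM with no overlap (-1.62, edgeR adjusted p = 0.01582). Rsph1, a radial spoke gene, and Ccno, which is needed to multiply centrioles, changed by -1.59 and -1.50 (edgeR adjusted p = 0.02883 and 0.04065), calls that were lost with DESeq2 (adjusted p = 0.0537 and 0.1591). In a fit over all 24 libraries of both days the call of Foxj1 was lost (edgeR adjusted p = 0.1257). Foxj1, Tppp3, Rsph1 and Ccno were called in 10, 12, 10 and 9 of the 20 alternatives. Mcidas, which initiates the multiciliated programme, had a log2 fold change of -1.80 and did not pass (edgeR adjusted p = 0.1732).

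The 7 multiciliated cell markers are all members of this list and restate part of it. All were tested, the 2 that fell are Foxj1 and Rsph1, none was at 0 and Foxj1 was the most abundant with a mean of 15.2 CPM. Their summed level was 55.5, 56.8 and 27.2 CPM at 0 Gy and 21.7, 22.01 and 9.99 CPM at 2 Gy, a ratio of 0.391, 0.387 and 0.367 in cultures mTG11, mTG12 and mTG14. The groups did not overlap in this sum. The calls were sensitive to the libraries used, as 0 of the 25 genes passed in edgeR without culture mTG11 or mTG14 (16 lower at an unadjusted p under 0.05 in each fit). Likewise 0 passed without the 2 Gy library of mTG11 or mTG14 (14 and 19 lower at an unadjusted p under 0.05) and without the 0 Gy library of mTG11, mTG12 or mTG14 (19, 17 and 16). Without the 2 Gy library of mTG12, 1 passed. In the other direction, 12 of the 25 fell with no filter beyond 1 count, and 5 fell with only the 6 compared libraries. The median log2 fold change of the list lay between -1.66 and -1.35 in the fits that left out a culture. Myb, a transcription factor gene that acts early in multiciliated cell formation and was chosen after its values were seen, was at 8.09, 7.51 and 4.12 CPM at 0 Gy and 1.57, 1.67 and 1.33 CPM at 2 Gy (-2.12, edgeR adjusted p = 0.009672). Its call was lost without culture mTG11 (adjusted p = 0.257), culture mTG14 (0.1145), 2 Gy mTG11 (0.1576), 0 Gy mTG11 (0.05516) or 0 Gy mTG12 (0.06427).

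Single genes of secretion and detoxification were also among those that fell. Bpifb1, a secreted defence protein gene of mucosal surfaces, was at 6.43, 3.22 and 94.3 CPM at 0 Gy and 1.79, 1.11 and 41.8 CPM at 2 Gy. Culture mTG14 was far above the others at both doses, and each culture was lower at 2 Gy (-1.39 ± 0.19, edgeR adjusted p = 0.003731). It was the 1 gene that passed of 25 secretory mucosal defence genes (median -0.15), of which 5 were higher and 6 lower at an unadjusted p under 0.05. In that list 3 higher and 8 lower genes passed with no filter beyond 1 count, and 2 higher and 4 lower of 24 tested in a fit of only the 6 compared libraries. Gstm1, a glutathione transferase gene, was at 293, 197 and 194 CPM and at 207, 115 and 116 CPM and changed by -0.70 ± 0.12 (edgeR adjusted p = 0.01582). It was the 1 gene that passed of 24 glutathione and NRF2 detoxification genes (median -0.14), of which 0 were higher and 9 lower at an unadjusted p under 0.05. There 7 passed with no filter beyond 1 count, 3 with DESeq2, and 2 with only the 6 libraries or with all 24, all of them lower. Adh7, an alcohol and retinol dehydrogenase gene, and Cyp2a5, a cytochrome P450 gene, changed by -1.23 and -1.67, both chosen after their values were seen and called in 16 and 14 of the 20 alternatives. Bpifb1 lost its call without culture mTG14 (edgeR adjusted p = 0.3504) or its 2 Gy library (0.3046). Gstm1 lost it without culture mTG14 (0.3333), 2 Gy mTG11 (0.07962), 2 Gy mTG14 (0.1317), 0 Gy mTG12 (0.1032) or 0 Gy mTG14 (0.08229). The counts of Cyp2a5 may include reads shared with related genes.

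Among 26 AP-1 and immediate early genes, Fos fell and 0 rose in edgeR, and the median log2 fold change was -0.01. Fos, a subunit of the AP-1 transcription factor at chr12:85520658-85524047, was at 190, 249 and 197 CPM at 0 Gy and 128, 126 and 98.6 CPM at 2 Gy. The groups did not overlap, and the log2 fold change was -0.90 ± 0.14 (edgeR adjusted p = 0.009672). The call was lost without culture mTG12 (adjusted p = 0.06362), culture mTG14 (0.07614), 2 Gy mTG11 (0.0783) or 0 Gy mTG12 (0.05116). Its paralog Fosb had a log2 fold change of -0.69 and did not pass (edgeR adjusted p = 0.1152). Slc35b2, a Golgi transporter gene of the sulphate donor PAPS, was at 39.0, 41.6 and 36.8 CPM and at 29.8, 23.1 and 26.1 CPM and was the remaining gene with a non-overlapping fall at a mean of at least 10 CPM (-0.60, edgeR adjusted p = 0.02975), a call lost in each fit that left out a culture or a library (adjusted p between 0.0585 and 0.3668), with DESeq2 (0.1031), without TMM factors (0.07079) and with only the 6 compared libraries (0.08267). It was called in 7 of the 20 alternatives.

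Other genes that rose without overlap between the groups at a mean of at least 10 CPM came from several functions. Plet1, a surface protein gene of epithelial progenitors, was at 284, 231 and 250 CPM at 0 Gy and 428, 340 and 453 CPM at 2 Gy (0.64 ± 0.08, edgeR adjusted p = 0.002646), and lost its call without culture mTG14 (adjusted p = 0.1082). Cryab, a small heat shock protein gene, was at 21.9, 30.0 and 29.4 CPM and at 41.2, 60.7 and 49.5 CPM (0.87, edgeR adjusted p = 0.02805). Ptgs1, which encodes cyclooxygenase 1, rose by 0.93 from a mean of 18.9 CPM to 35.9 CPM (edgeR adjusted p = 0.01538). The cell adhesion gene Igsf9b, the extracellular protein gene Aebp1, the protocadherin gene Fat1 and the heat shock pseudogene Hsp25-ps1 rose by 0.90, 0.87, 0.63 and 0.45, and reads of Hsp25-ps1 may come from its parent gene. Cryab, Ptgs1, Igsf9b, Aebp1, Fat1 and Hsp25-ps1 were called in 12, 13, 9, 8, 10 and 8 of the 20 alternatives, and in those with the replicate block their adjusted p was up to 0.2087, 0.2728, 0.4157, 0.4619, 0.4829 and 0.36.

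The p53 target genes held no call at day 11 in the main fit. Of 30 genes, 0 passed in edgeR and 1 in DESeq2. In edgeR 3 passed, all higher, with no filter beyond 1 count, and 1 passed with thinned counts, without culture mTG12 or without its 2 Gy library. In the main fit 10 were higher and 0 lower at an unadjusted p under 0.05, and 25 had positive log2 fold changes with a median of 0.16. The summed level was 2924, 3175 and 2735 CPM at 0 Gy and 3291, 3430 and 3529 CPM at 2 Gy. Cdkn1a, the p21 inhibitor of cyclin-dependent kinases, was at 446, 468 and 412 CPM at 0 Gy and 598, 515 and 627 CPM at 2 Gy. These groups did not overlap, but the log2 fold change of 0.36 ± 0.10 did not pass (edgeR adjusted p = 0.1824). Mdm2, the ubiquitin ligase gene that limits p53, had a log2 fold change of 0.21 (edgeR adjusted p = 0.7148).

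Cell cycle and repair lists held 0 genes that passed, in the main edgeR fit as in DESeq2. In edgeR with no filter beyond 1 count, 1 of the CDK inhibitors and D cyclins and 1 of the repair genes passed, both higher, and 1 of the former passed without culture mTG12 or its 2 Gy library. The 10 CDK inhibitors and D cyclins had 1 higher and 1 lower gene at an unadjusted p under 0.05 and a median of 0.02. For 30 DNA replication genes these were 3 and 1 with a median of 0.04, and for 30 mitosis genes 0 and 1 with a median of -0.02. The 27 DNA damage signalling and repair genes had 3 higher and 0 lower and a median of 0.08. Mki67, a marker of cycling cells, was at 24.2, 23.7 and 26.5 CPM at 0 Gy and 22.1, 47.2 and 21.97 CPM at 2 Gy, so the 2 Gy libraries lay on either side of the 0 Gy range. Among 24 tested chemokine and cytokine genes 0 passed in edgeR and 1 in DESeq2, with 6 higher and 0 lower at an unadjusted p under 0.05. Of these, the monocyte chemoattractant gene Ccl2 was at 1.19, 4.29 and 3.57 CPM and at 4.03, 15.9 and 11.7 CPM (1.75, edgeR adjusted p = 0.06984). With no filter beyond 1 count 3 of 27 tested chemokine and cytokine genes passed in edgeR, all higher, and 1 passed in some of the other alternatives.

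Lists of epithelial identity showed 0 calls in the main edgeR fit and in DESeq2, other than Foxj1 among the 25 epithelial fate transcription factors. Higher and lower genes at an unadjusted p under 0.05 numbered 0 and 1 of 7 basal and stress keratins, 0 and 2 of 11 simple and suprabasal keratins and 1 and 2 of 32 tested cornified envelope genes, with medians of -0.16, -0.15 and -0.11. They numbered 2 and 0 of 17 tested kallikreins and squamous proteases, 0 and 0 of 13 desmosomal genes, 0 and 2 of 16 tight junction genes and 2 and 0 of 12 hemidesmosome genes, with medians between -0.07 and 0.06. Notch pathway genes had 2 and 2 of 13, and thyroid function genes 1 and 3 of 12 tested, with medians of 0.00 and -0.15. Krt5, the main keratin of basal cells, was at 2182, 2947 and 2355 CPM at 0 Gy and 1996, 2495 and 2069 CPM at 2 Gy (-0.22, edgeR adjusted p = 0.4147). Krt13, a keratin of suprabasal mucosal cells, had a log2 fold change of 0.00. In edgeR with no filter beyond 1 count, calls appeared in several of these lists, the most among 34 tested cornified envelope genes (2 higher and 5 lower).

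Metabolic lists had small negative medians. Of 15 mitochondrially encoded genes, 0 passed in the main edgeR fit and 2 fell with DESeq2, and 11 were lower and 0 higher at an unadjusted p under 0.05, with a median log2 fold change of -0.26. The count of lower genes that passed in edgeR was 12 with no filter beyond 1 count, 4 in a fit of only the 6 compared libraries, and 0 or 1 in the other alternatives that kept these genes. Of 27 cholesterol and fatty acid synthesis genes, 22 glycolysis and hypoxia genes and 22 ATF4 stress genes, 0 passed in the main edgeR fit and 0 in DESeq2, and with no filter beyond 1 count 2, 2 and 0 passed, all lower. In the main fit 5, 3 and 1 genes were lower at an unadjusted p under 0.05, and the medians were -0.15, -0.14 and -0.05. The 10 most expressed genes, led by ribosomal RNA (Rn18s-rs5) and mitochondrial ribosomal RNA (mt-Rnr2, mt-Rnr1), included the glutathione transferase gene Gsto1, the lactoferrin gene Ltf, the cornified envelope genes Sprr2a1 and Sprr2a2, Ecm1, Malat1 and LOC118568312, and none of them passed. Ltf was at 7791 ± 1140 CPM at 0 Gy and 7650 ± 1835 CPM at 2 Gy (SD, n = 3).

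The same dose was examined at day 7 to see which of its effects were measurable at both times. At day 7, edgeR with the replicate block called 138 of 19346 genes (0.713%), of which 82 rose (0.424%) and 56 fell (0.289%). At an unadjusted p under 0.05 there were 1057 higher and 1046 lower genes at day 7, and 50.3% of the genes tested had positive log2 fold changes. Without the block the day 7 count was 24, and it was 68, 61, 60 and 71 without 2 Gy mTG12, 2 Gy mTG14, 0 Gy mTG11 and 0 Gy mTG12. Days 7 and 11 share no libraries, although they share cultures. In all 8 genes were called at both days, 11.1% of the day 11 calls and 5.80% of the day 7 calls, and all 8 changed in the same direction. Of the 72 genes called at day 11, 61 had the same sign at day 7, and of the 137 genes called at day 7 and tested at day 11, 121 had the same sign at day 11. The share of all tested genes with the same sign at both days is not given here, so these counts lack a background. Genes that rose at day 7 had a median log2 fold change of 0.25 at day 11, and genes that fell at day 7 had a median of -0.25.

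The 8 genes called at both days were Fos, Gstm1, Irf7, Ifi44, Tap1, Ifit1bl1, Igsf9b and Hsp25-ps1. Fos was at 183, 216 and 211 CPM at 0 Gy and 105, 97.7 and 119 CPM at 2 Gy at day 7, with a log2 fold change of -0.96 against -0.90 at day 11. The difference between these was 0.08 ± 0.25. Gstm1 changed by -0.73 at day 7 and -0.70 at day 11. Irf7, Ifi44, Tap1 and Ifit1bl1 rose by 1.44, 1.97, 0.68 and 0.93 at day 7, against 0.93, 1.19, 0.63 and 0.95 at day 11. Igsf9b rose by 1.51 at day 7 and 0.90 at day 11, and Hsp25-ps1 by 0.49 and 0.45.

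A test of the difference between the days, over 24 libraries, called 2 of 21928 genes (0.00912%), Mcam and Ccng1. Both rose at day 7 and were less changed at day 11. Mcam, a cell adhesion molecule gene, was at 4.69, 5.83 and 8.49 CPM at 0 Gy and 30.1, 28.1 and 32.9 CPM at 2 Gy at day 7 (log2 fold change 2.20 ± 0.20, edgeR adjusted p = 7.365e-05). At day 11 it was at 19.3, 18.2 and 17.6 CPM and at 21.0, 25.1 and 20.8 CPM (0.24 ± 0.17, edgeR adjusted p = 0.7696). The difference of the responses was -1.96 ± 0.29 (edgeR adjusted p = 0.01038). Ccng1, the p53 target gene of cyclin G1, was at 88.1, 125 and 100 CPM and at 207, 275 and 212 CPM at day 7 (1.12 ± 0.11, edgeR adjusted p = 8.544e-05). At day 11 it was at 180, 175 and 141 CPM and at 190, 197 and 198 CPM (0.21 ± 0.09, edgeR adjusted p = 0.5158), and the difference was -0.91 ± 0.15 (edgeR adjusted p = 0.02747). In each culture the 0 Gy level of Mcam and of Ccng1 was higher at day 11 than at day 7 and the 2 Gy level was lower, which was not tested. Over the alternatives the adjusted p of the difference ranged from 2.649e-05 to 0.1027 for Mcam and from 4.467e-05 to 0.6544 for Ccng1, whose call was also lost without TMM factors (0.05859). Without the replicate block 0 genes were called by edgeR, with 1133 at an unadjusted p under 0.05, and with the block DESeq2 called 4.

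The difference test of Mcam was lost, among fits without a single library, without day 11 0 Gy mTG11 (edgeR adjusted p = 0.1027), day 11 0 Gy mTG14 (0.06441), day 7 2 Gy mTG14 (0.05328), day 7 0 Gy mTG11 (0.09863) and day 7 0 Gy mTG12 (0.06627). That of Ccng1 was lost without day 11 2 Gy mTG11 (0.08652), day 11 2 Gy mTG12 (0.1641), day 11 0 Gy mTG11 (0.1635), day 11 0 Gy mTG14 (0.103), day 7 2 Gy mTG12 (0.1166), day 7 2 Gy mTG14 (0.09907), day 7 0 Gy mTG11 (0.1264) and day 7 0 Gy mTG12 (0.06627).

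Of the 30 p53 target genes, 12 rose at day 7 (24 higher and 0 lower at an unadjusted p under 0.05) with a median log2 fold change of 0.72, against 0 that passed and a median of 0.16 at day 11. The difference between days was called for 1 of them, Ccng1, and the median difference was -0.49. Cdkn1a was at 223, 247 and 259 CPM at 0 Gy and 370, 430 and 429 CPM at 2 Gy at day 7 and rose by 0.72 (edgeR adjusted p = 0.001279), and its difference between days was -0.35 (edgeR adjusted p = 0.6765). Its level in unirradiated organoids was higher at day 11 in each culture. Mdm2 rose by 0.83 at day 7. Zmat3, another p53 target, and Sulf2 and Tmem43 had differences of -0.77, -0.83 and -0.61 and did not pass (edgeR adjusted p = 0.1824, 0.1256 and 0.1824).

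Of the 36 interferon-stimulated genes, 3 rose at day 7, Irf7, Ifi44 and Xaf1, with a median of 1.04 against 0.99 at day 11. At an unadjusted p under 0.05, 23 of the 36 were higher and 0 lower at day 7, and all 36 had positive log2 fold changes. At day 7 the summed level of the list was 1.94, 1.08 and 2.43 times that of 0 Gy in cultures mTG11, mTG12 and mTG14, so mTG12 was nearly level at day 7 and not at day 11. The class I list had 1 gene that rose at day 7, Tap1, with 2 of 16 tested genes higher and 0 lower at an unadjusted p under 0.05 and a median of 0.10. For multiciliated cell genes, 17 were tested at day 7, 0 passed in edgeR and 1 was higher at an unadjusted p under 0.05, and for stromal genes 17 were tested, 0 passed, and 3 were higher and 2 lower. The medians of these lists at day 7 were -0.14 and 0.06. The test of the difference between days called 0 genes of the interferon-stimulated, class I, multiciliated and stromal lists. In that order, 0, 5, 0 and 7 genes were higher at day 11 in this edgeR test at an unadjusted p under 0.05, and 0, 0, 4 and 1 lower. At 0 Gy the multiciliated list summed to 21.2, 22.9 and 12.0 CPM over its 25 genes at day 7, against 181, 183 and 96.2 CPM at day 11, so its day 7 median rests on genes at low levels. At day 7 the sum of the stromal list was 1.34, 1.48 and 1.20 times that of 0 Gy, and the fibroblast markers had ratios of 1.11, 1.06 and 0.868. Dcn and Spp1 were among the 5 genes with the smallest p for a larger log2 fold change at day 11, together with Ccl2, Acta1 and Cnpy2. The difference for Dcn was 2.47 ± 0.48 and did not pass (edgeR adjusted p = 0.1256). Mmp10 had a log2 fold change of 0.38 at day 7 and a difference of 2.01 that did not pass (edgeR adjusted p = 0.3263).

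**Figure D2:**
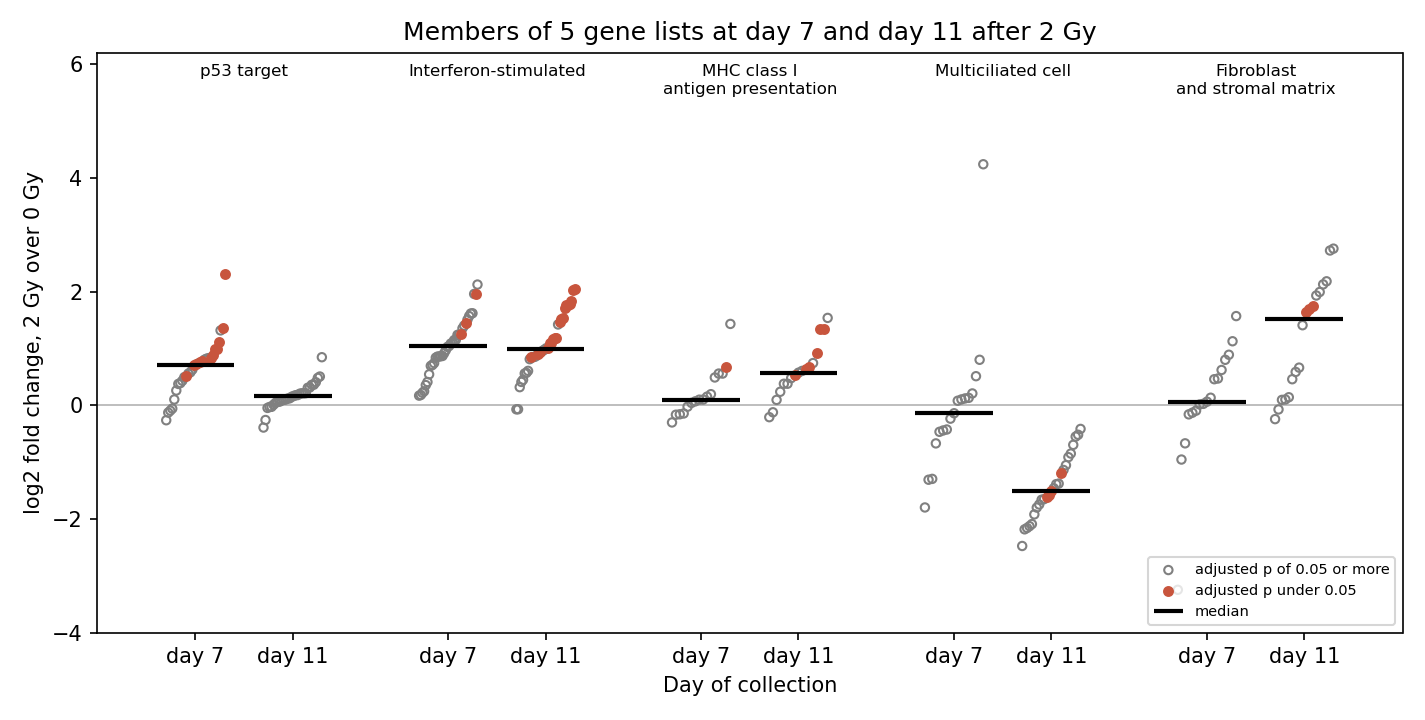
Log2 fold change of 2 Gy against 0 Gy for the tested members of 5 gene lists at day 7 and day 11, with filled points for an edgeR adjusted p under 0.05 and bars for the median of the list. The median of the p53 targets is 0.72 at day 7 and 0.16 at day 11, and that of the multiciliated cell genes is -0.14 at day 7 (17 of 25 genes tested, mean sum at 0 Gy 18.7 CPM) and -1.50 at day 11 (25 tested, 153 CPM). The test of the difference between days called 1 p53 target, Ccng1, and 0 genes of the other lists shown.

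Higher doses at day 11 are set beside 2 Gy without a comparison of the lists, since 2, 4 and 7 Gy share the 0 Gy libraries. Against 0 Gy, edgeR called 238 of 19901 genes at 4 Gy (1.2%), with 172 higher (0.864%) and 66 lower (0.332%), and 1297 at 7 Gy (6.52%), with 717 higher (3.6%) and 580 lower (2.91%). At 2, 4 and 7 Gy, 19, 29 and 35 of the 36 interferon-stimulated genes rose, with medians of 0.99, 1.33 and 1.72. For the class I list 6, 9 and 13 genes rose, with medians of 0.57, 0.90 and 1.22. For the multiciliated list 4, 10 and 14 genes fell, with medians of -1.50, -1.75 and -1.64, and for the stromal list 3, 2 and 4 genes rose, with medians of 1.52, 1.21 and 1.00. Of the mitosis genes 0, 4 and 28 rose. The summed level of the interferon-stimulated genes was 2919, 1145 and 1950 CPM at 4 Gy and 3877, 2081 and 2846 CPM at 7 Gy. Fibroblast markers summed to 17.6, 130 and 102 CPM at 4 Gy and 19.6, 81.2 and 93.4 CPM at 7 Gy, and multiciliated cell markers to 20.5, 10.6 and 8.56 CPM and to 13.9, 22.2 and 8.74 CPM. Their part in these values was not tested. Without the replicate block the calls at 4 and 7 Gy were 1 and 302. For 4 Gy they were 144 and 149 without 4 Gy mTG12 and mTG14, and 128, 84 and 149 without 0 Gy mTG11, mTG12 and mTG14. For 7 Gy they were 711, 750 and 829 without 7 Gy mTG11, mTG12 and mTG14, and 676, 732 and 863 without the 0 Gy libraries in the same order, and 811 with DESeq2.

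**Figure D3:**
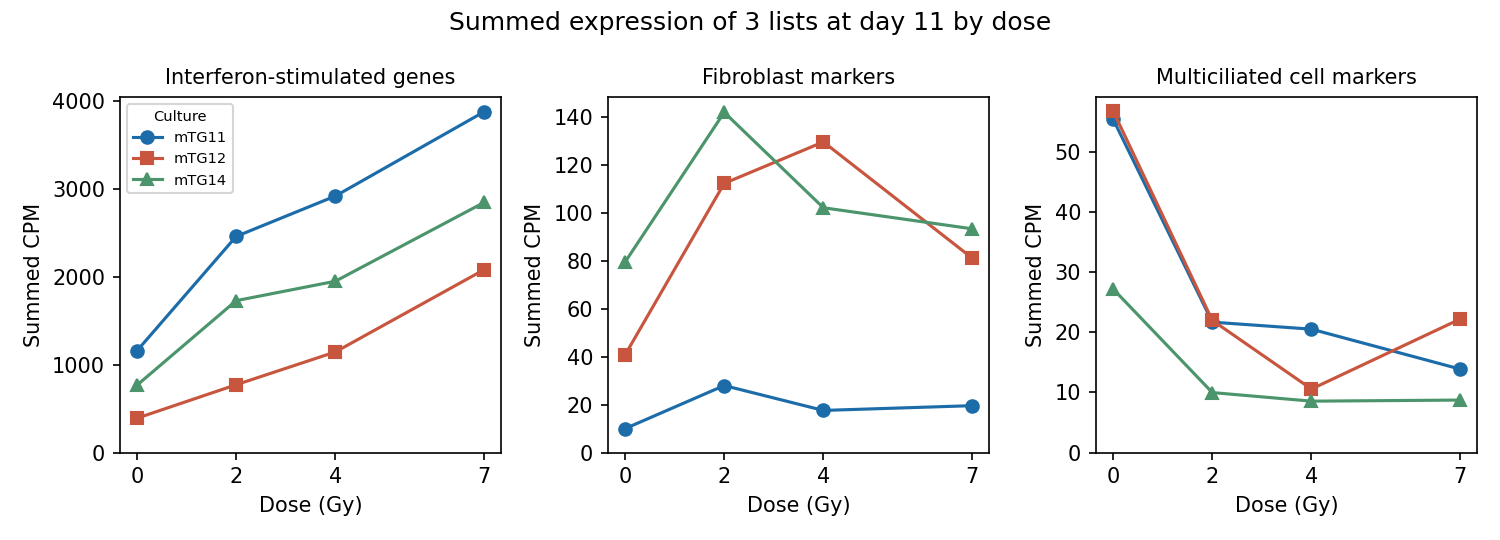
Summed CPM at day 11 of the interferon-stimulated genes, fibroblast markers and multiciliated cell markers against dose in Gy, with a line for each culture. In culture mTG11 the interferon-stimulated genes sum to 1159 CPM at 0 Gy, 2460 CPM at 2 Gy and 3877 CPM at 7 Gy. The multiciliated cell markers at 0, 2, 4 and 7 Gy sum to 55.5, 21.7, 20.5 and 13.9 CPM in mTG11, 56.8, 22.01, 10.6 and 22.2 CPM in mTG12 and 27.2, 9.99, 8.56 and 8.74 CPM in mTG14.

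The direct test of 7 Gy against 2 Gy at day 11 called 740 of 19901 genes (3.72%), of which 475 were higher (2.39%) and 265 lower (1.33%) at 7 Gy, and at an unadjusted p under 0.05 there were 1751 higher and 1590 lower genes. Of the interferon-stimulated genes 21 were higher at 7 Gy and 0 lower, with a median difference of 0.73, and of the class I genes 11 were higher and 0 lower. B2m differed by 1.29 (edgeR adjusted p = 2.693e-05) and Ifi27l2a by 2.90 (edgeR adjusted p = 3.601e-05). Oasl2 had a difference of 0.49 that did not pass (edgeR adjusted p = 0.09375). Of the multiciliated cell genes 0 passed in either direction in edgeR, with 4 lower and 0 higher at an unadjusted p under 0.05 (median difference -0.39). Mmp10 and Col1a1 were lower at 7 Gy than at 2 Gy, by differences of -1.61 (edgeR adjusted p = 0.003732) and -0.92 (edgeR adjusted p = 0.005459). Their log2 fold changes against 0 Gy were 2.40 and 1.70 at 2 Gy, 1.53 and 1.45 at 4 Gy and 0.79 and 0.78 at 7 Gy. Of the mitosis genes 27, of the DNA replication genes 15 and of the tested cornified envelope genes 19 were higher at 7 Gy than at 2 Gy, and 0 were lower. Without the replicate block 123 genes were called. The count was 413, 365 and 354 without 7 Gy mTG11, mTG12 and mTG14, and 268 and 338 without 2 Gy mTG11 and mTG14.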

How the data were processed

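RNA of mouse thyroid gland organoids was sequenced by the authors with Smart3SEQ. The deposited values are estimated counts, 1 per gene symbol and library, which need not be whole numbers (56.3% of nonzero values were whole). The submitters' processing notes name STAR, edgeR and build GRCm39, without versions. The rule for shared reads, strand and molecular identifiers are not given in the sources used here, so paralogs, overlapping and antisense genes are uncertain. The design had assumed whole counts, so values were rounded.

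Genes with at least 10 counts summed over a fit were tested with edgeR 4.0.16 in R 4.3.3 (TMM factors, quasi-likelihood test, two-sided, Benjamini-Hochberg threshold 0.05) over the 12 libraries of a day, or 24 for the difference between days, with the culture in the column name as replicate block. At day 11, deviations from the group means correlated between libraries of a culture (mean r 0.358, lowest 0.257, mean -0.179 between cultures). No libraries agreed within sampling noise (smallest chi-square per degree of freedom 4.23 over 24 pairs). CPM used the deposited library totals. Code was tested on simulated data.

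Alternatives were DESeq2 1.42.0, no block, other scalings and filters, only the 6 libraries, all 24 libraries, thinning, no mitochondrial or ribosomal protein genes, and leaving out cultures and libraries. Unrounded counts were added after seeing the data. Named genes were list members and, at a mean of at least 10 CPM, up to 10 non-overlapping rises and 10 falls, with the 10 most expressed genes, the genes called at both days, and the 5 smallest p on each side of the day difference. The members and lists were chosen with earlier results of these data known. Coordinates are from GENCODE vM39 for GRCm39. Promoters were read with Python 3.11.15 from RefSeq, table build GRCm38.p6.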

Additional observations from a re-analysis of the deposited data

Results flagged for a closer look

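In 2 genes the effect of 2 Gy was not the same at both days by a test of that difference, which is why they are listed here. For Mcam the day 11 minus day 7 difference of the log2 fold changes was -1.96 (edgeR adjusted p = 0.01038), from 2.20 at day 7 and 0.24 at day 11, and 2 Gy was higher than 0 Gy in 3 of 3 cultures at both days. For Ccng1 the difference was -0.91 (edgeR adjusted p = 0.02747), from 1.12 at day 7 and 0.21 at day 11, also higher in 3 of 3 cultures at both days. Both calls were lost without the replicate block (edgeR adjusted p = 0.1008 for Mcam and 0.6544 for Ccng1) and in several fits without a single library, and that of Ccng1 also without TMM factors (0.05859). Other genes of the p53 target list had no such call.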

How the results depend on the processing

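Without the replicate block, which sets aside the pairing of cultures, the comparison of 2 Gy against 0 Gy at day 11 called 0 genes in place of 72, and the other tests called 24 genes in place of 138 (2 Gy at day 7), 0 in place of 2 (difference between days), 1 in place of 238 (4 Gy), 302 in place of 1297 (7 Gy) and 123 in place of 740 (7 Gy against 2 Gy). With no filter beyond 1 count, 455 genes were called for 2 Gy at day 11 (245 higher, 210 lower), and the cause was not tested. DESeq2 called 4 genes for the difference between days and 811 for 7 Gy, and without TMM factors 1 gene was called for the difference, with the cause not tested. Without TMM factors the 7 Gy calls split into 761 higher and 375 lower, beside 717 and 580. With libraries or cultures left out, which leaves fewer samples, counts ranged from 9 to 85 for 2 Gy at day 11, 60 to 173 for 2 Gy at day 7, 0 to 3 for the difference, 84 to 160 for 4 Gy, 676 to 863 for 7 Gy and 268 to 512 for 7 Gy against 2 Gy. The other alternatives for 2 Gy at day 11 called between 68 genes (unrounded counts, chosen after seeing the data) and 107 (thinned counts). All 72 genes had the same sign in every alternative of this comparison. Ifit3, Ifit3b, Spp1 and Ifi44 were among the genes called in 19 of 20 alternatives, all but the fit without the block. Genes near 3 counts in a library, such as Mmp9 and Mmp12 at 0 Gy, are limited by depth.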
